A study of Mus musculus with 30 samples.

Results

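The replication-dependent histone genes are the clustered genes that make the core histones H2A, H2B, H3 and H4 and the linker histone H1. They were taken as every gene of the deposited count table whose GENCODE symbol starts with Hist1h, Hist2h, Hist3h or Hist4h, leaving out 1 gene marked as a pseudogene in its symbol. That rule uses names alone and gave 69 of the 55421 genes in the table: 6 H1, 20 H2A, 18 H2B, 12 H3 and 13 H4 genes. The Hist1 cluster on mouse chromosome 13 holds 56 of them, Hist2 on chromosome 3 holds 10, Hist3 on chromosome 11 holds 2 and Hist4 on chromosome 6 holds 1.

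The levels come from polyA-selected RNA-seq of 30 libraries of E14 mouse embryonic stem cells, an XY line of 129P2/Ola background, in 10 groups of 3. All 5 lines carry Tir1, the plant F-box protein that marks proteins with an auxin-inducible degron (AID) for destruction when auxin is added. The TIR1 line (EN148.10) has no degron and controls for auxin, the PDS5AB line (EN293.1) carries PDS5A-AID and PDS5B-AID, and the WAPL line (CMW184) carries WAPL-AID. The PDS5AB-NIPBL line (EN331.2) carries PDS5A-AID, PDS5B-AID, NIPBL-FKBP and RAD21-Halo, and the WAPL-NIPBL line (EN382.1) carries WAPL-AID, NIPBL-FKBP and RAD21-Halo. Cohesin, of which RAD21 is a subunit, extrudes chromatin loops, and the proteins tagged for degradation are its cofactors. Each line was sampled untreated and after 24 h with 500 µM auxin, to which 500 nM dTAG-13, the ligand that sends FKBP fusions to degradation, was added in both NIPBL lines. Each genotype is represented by 1 line, so a difference between lines may belong to the line and not to its tags. Nothing in the labels says that replicates were separate cultures, so p-values measure the spread between these samples. The degrons act on protein, so the transcript levels of their targets do not check the depletion.

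Most mRNAs end in a poly(A) tail, whereas replication-dependent histone mRNAs normally end a few bases after a short stem-loop that is bound by SLBP and set by cleavage with the U7 small nuclear ribonucleoprotein. They are made mainly in S phase, when new DNA has to be packed, and are degraded when replication stops. Some of these genes can also use a poly(A) signal further downstream, and such polyadenylated copies are known from differentiated and non-dividing cells. An oligo(dT) selection keeps those copies and loses the stem-loop form, so the values below are levels of polyadenylated or carried-over histone RNA and not of the whole histone mRNA pool.

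The stem-loop is shown first because it marks the normal end of these mRNAs, whereas the selection keeps copies with a poly(A) tail. A match to 1 of 8 variants of the 16-base stem-loop was found in an annotated transcript of 46 members. The transcripts were those of GENCODE vM21 on GRCm38, in which the spans of all 69 genes are the same as in the deposited table. Where a gene had several transcripts, that with the most matches was used, and the longest among equals. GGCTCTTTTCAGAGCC was carried by 26 members, of which 3 were H1, 10 H2A, 8 H2B and 5 H3 genes. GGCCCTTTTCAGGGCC was carried by 7 members, all H4 genes. The sites of 6 members the results turn on are given 5′ to 3′ as they read in the transcript, with the stem-loop in capitals.
Hist1h1c: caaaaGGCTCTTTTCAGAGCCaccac
Hist1h4i: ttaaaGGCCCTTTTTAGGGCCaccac
Hist1h3g: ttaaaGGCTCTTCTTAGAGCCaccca
Hist1h4h: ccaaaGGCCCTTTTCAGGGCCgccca
Hist2h3c2: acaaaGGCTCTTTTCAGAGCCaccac
Hist3h2a: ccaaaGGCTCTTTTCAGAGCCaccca

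Hist1h4i and Hist1h3g carry rarer variants of the loop, found in 2 and 1 members. What differs more between members is how far the annotated transcript goes on after the stem-loop. The annotation goes on for 840 bases in Hist1h1c, 330 in Hist1h4i, 377 in Hist2h3c2 and 1643 in Hist3h2a, and for only 47 in Hist1h3g and 46 in Hist1h4h. Over all members, 23 had transcripts reaching more than 100 bases past the stem-loop, 23 ended within 100 bases of it, and 23 had no such match in their model. A poly(A) signal lay in the last 50 bases of 12, 1 and 2 of these transcripts, respectively. Models without a match were mostly short, with a median of 399 bases. Those ending near the stem-loop had a median of 482 and those reaching past it 1249. A missing match may thus come from a model that stops early and not from the gene. Hist1h2bc and Hist2h2be, a pair of H2B genes, are members without a stem-loop match whose models run to 1156 and 2620 exon bases.

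Histone RNA was a small part of these libraries and was held by few genes. The 69 members summed to 54 CPM (counts scaled to a common library size by the TMM method) on average over the 30 libraries, with a lowest library of 30, a median of 44.9 and a highest of 125 CPM. By histone type, H2B genes took 47.6% of that sum, H1 genes 24.2%, H4 genes 13.3%, H3 genes 8.55% and H2A genes 6.41%. By cluster, Hist1 took 91.9%, Hist3 4.29%, Hist2 3.5% and Hist4 0.324%. Hist1h2bc and Hist1h1c alone held 58.2% of the 47662 member fragments counted, while the median count per library of the median member was 4.5.

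To compare genes, levels were expressed as fragments per kilobase, on the CPM scale (FPKM) over the exon length in the deposited table. Hist1h2bc (ENSMUSG00000018102.5, chr13:23684199-23692908, plus strand, 2 exon blocks) was highest at 17.6 FPKM, followed by Hist1h1c (ENSMUSG00000036181.2, chr13:23738808-23740367, plus strand) at 7.04 and Hist1h4i (ENSMUSG00000060639.5, chr13:22040636-22041362, minus strand) at 5.51. The leading H3 gene, Hist1h3g (ENSMUSG00000099517.2, chr13:23535422-23535951, plus strand), stood at 2.46 FPKM. The leading H2A gene, Hist1h2al (ENSMUSG00000091383.2, chr13:51202727-51203065, minus strand), stood at 1.18 FPKM, lies apart from the rest of the cluster and has a pseudogene biotype in the annotation. Next among H2A genes came Hist1h2ae at 0.839 and Hist3h2a at 0.628 FPKM. Hist3h2ba at 1.57 and Hist1h2bp at 0.947 FPKM followed Hist1h2bc among H2B genes, Hist1h4h at 1.25 and Hist1h4k at 1.2 followed Hist1h4i among H4 genes, and Hist1h3c at 1.02 and Hist2h3c2 at 0.578 followed Hist1h3g among H3 genes. Hist1h1a at 0.888 and Hist1h1b at 0.463 FPKM followed Hist1h1c among H1 genes. The medians of the types were 0.313 FPKM for H1, 0.151 for H2A, 0.377 for H2B, 0.465 for H3 and 0.381 for H4 genes.

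Members whose annotated transcript reaches past the stem-loop had a median of 0.422 FPKM, those ending near it 0.232, and those without a match 0.258. The first of these classes held 45.4% of the summed CPM, the second 9.44% and the last 45.2%, most of it from Hist1h2bc. These 3 classes overlap widely in level, as the plot of levels by annotated end shows, and their models differ in length, with median transcript lengths of 1249, 482 and 399 bases.

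**Figure D1:**
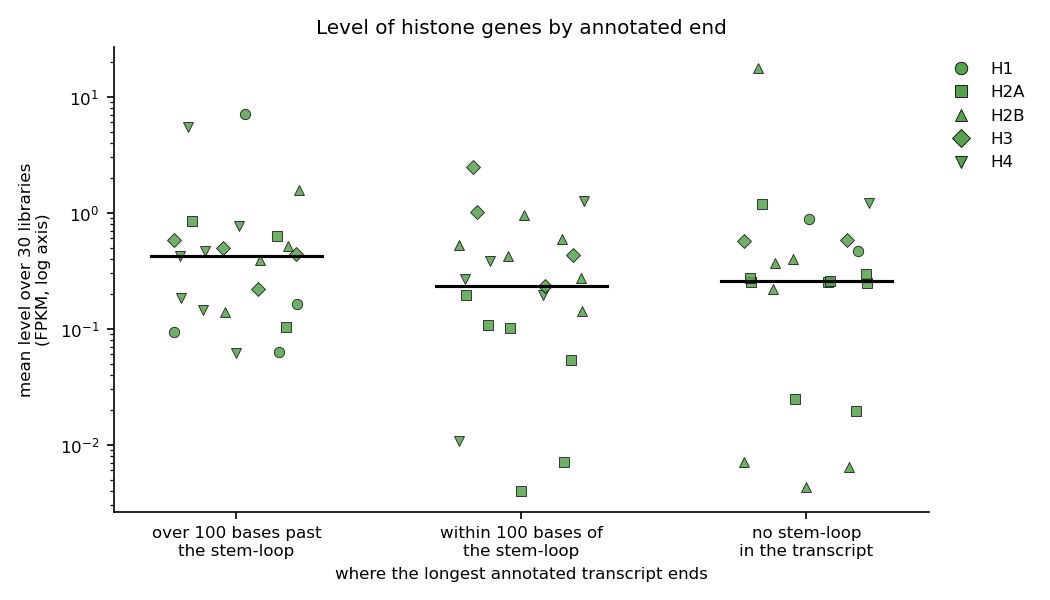
Mean level of each histone gene over the 30 libraries (FPKM, log axis) by where its annotated transcript ends. The transcript used was the longest, unless another held more stem-loop matches. Each symbol is a gene, its shape gives the histone type, and the bar is the class median over all 23 members (0.422, 0.232 and 0.258 FPKM); 5 genes at 0 in every library cannot be drawn on a log axis.

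Outside Hist1, few members were measurable. In Hist2, the H2A genes Hist2h2aa1 and Hist2h2aa2, the H2B gene Hist2h2bb and the H3 genes Hist2h3b and Hist2h3c1 had 0 counts in all 30 libraries. Each of these genes shares 100% of its 50-base stretches with another gene and overlaps other genes over 100% of its exon bases. Fragments of that kind were dropped by the counting, so these values do not show that the RNA was absent. Hist2h2ac and Hist2h2ab, the other H2A genes of Hist2, stood at 0.054 and 0.0246 FPKM with at most 3 and 2 counts in a library. Hist2h2be stood at 0.366 and Hist2h4 at 0.183 FPKM. The sole Hist4 member, Hist4h4, stood at 0.0612 FPKM and had 26 of its counts in TIR1 untreated replicate 1, against 4 and 1 in the other libraries of that group. The members known as testis forms were near absent: Hist1h1t stood at 0.0625 FPKM, Hist1h2aa had 7 counts over all libraries and Hist1h2ba had 2. None of 7 partner genes of the germline histone programme passed the filter on low counts.

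Many of these genes are near copies of each other, and fragments that map to several places were dropped by the counting, so their levels are uncertain and too low by an unknown amount. Of the 50-base windows of a member's transcript, a median of 55% occurred in another gene as well, and 36 members had more than 50% of their windows shared. The type medians were 1.15% for H1, 73.25% for H2A, 46.9% for H2B, 61.95% for H3 and 39.5% for H4 genes. Hist1h1c shared 8.5% of its windows, Hist1h4i 28.9%, Hist1h2bc 30.6%, Hist1h4h 45.8%, Hist1h3g 54.1%, Hist2h3c2 63.5%, Hist1h2al 67.6% and Hist1h4k 71.5%, while Hist2h2be shared 0%. In addition, 26 members overlap exons of another gene, 23 of them on the opposite strand, and reads were counted without regard to strand. Hist3h2a overlaps Trim17 on its own strand and Gm44313 on the other over 33% of its exon bases, and Hist1h2al overlaps Gm44341 on the other strand over 32.2%, and fragments that touched both genes there were dropped, which lowers their counts by an unknown amount.

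In the tests, 19868 genes passed the filter on low counts, among them 35 members (5 H1, 4 H2A, 10 H2B, 9 H3 and 7 H4 genes) that held 96% of the summed CPM; the other 34 were not tested. Below, "rose" and "fell" stand for an adjusted p under 0.05 in edgeR's quasi-likelihood F test (Benjamini-Hochberg, over all 19868 genes), and a log2 fold change is given with its standard error. Library totals ran from 19632704 to 45539021 fragments. The library numbers in the labels run from 1 to 21 for untreated TIR1 and both PDS5AB groups and from 25 for all other groups. Hence the 4 degron lines were each treated and untreated within a number range, whereas treated and untreated TIR1 cells, and untreated PDS5AB-NIPBL and PDS5AB cells, cannot be told apart from the break in numbers. TIR1 untreated replicate 1 and PDS5AB-NIPBL treated replicate 2 stood apart in 7SK RNA, an abundant nuclear RNA without a poly(A) tail, with 10.3 and 11.1 CPM against 0.0767 to 3.05 CPM in the other 28 libraries. The 9 embryonic stem cell markers, among them Pou5f1 and Nanog, summed to 4820 to 8170 CPM in every library and the 7 fibroblast markers to 8.36 to 33.1 CPM.

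The first comparison asked how histone RNA levels change when the cohesin cofactors PDS5A and PDS5B are removed. All 69 members together stood at 73.3, 71.7 and 70.9 CPM in untreated PDS5AB cells and at 125, 115 and 117 CPM after auxin, a ratio of the means of 1.65 ± 0.0813 (SD propagated from the replicates, n = 3 and 3). Each treated library lay above each untreated library, for the sum of all members and for every histone type. The H4 sum had the largest of the type ratios, 2.24 ± 0.218, followed by H3 at 1.91 ± 0.184, H2A at 1.6 ± 0.167, H1 at 1.55 ± 0.0363 and H2B at 1.5 ± 0.138. By cluster the ratio was 1.63 ± 0.0891 for Hist1, 2.21 ± 0.133 for Hist2 and 1.79 ± 0.171 for Hist3. The sole Hist4 member, Hist4h4, which was not tested, lay the other way, at 0.303, 0.231 and 0.221 CPM untreated and 0.0746, 0.098 and 0.131 CPM treated, or 24 against 9 counts (ratio scaled to depth 0.41, 95% interval 0.168 to 0.913, counting error only). All 34 members not tested summed to 3.37, 3.14 and 3.06 CPM untreated and to 3.28, 3.14 and 1.96 CPM treated, a ratio of 0.875 ± 0.232 with overlapping groups. The filter keeps members that are high enough in some group, so the levels themselves help to decide which members were tested. In bulk RNA, more cells making a transcript and more of it in each cell cannot be told apart.

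**Figure D2:**
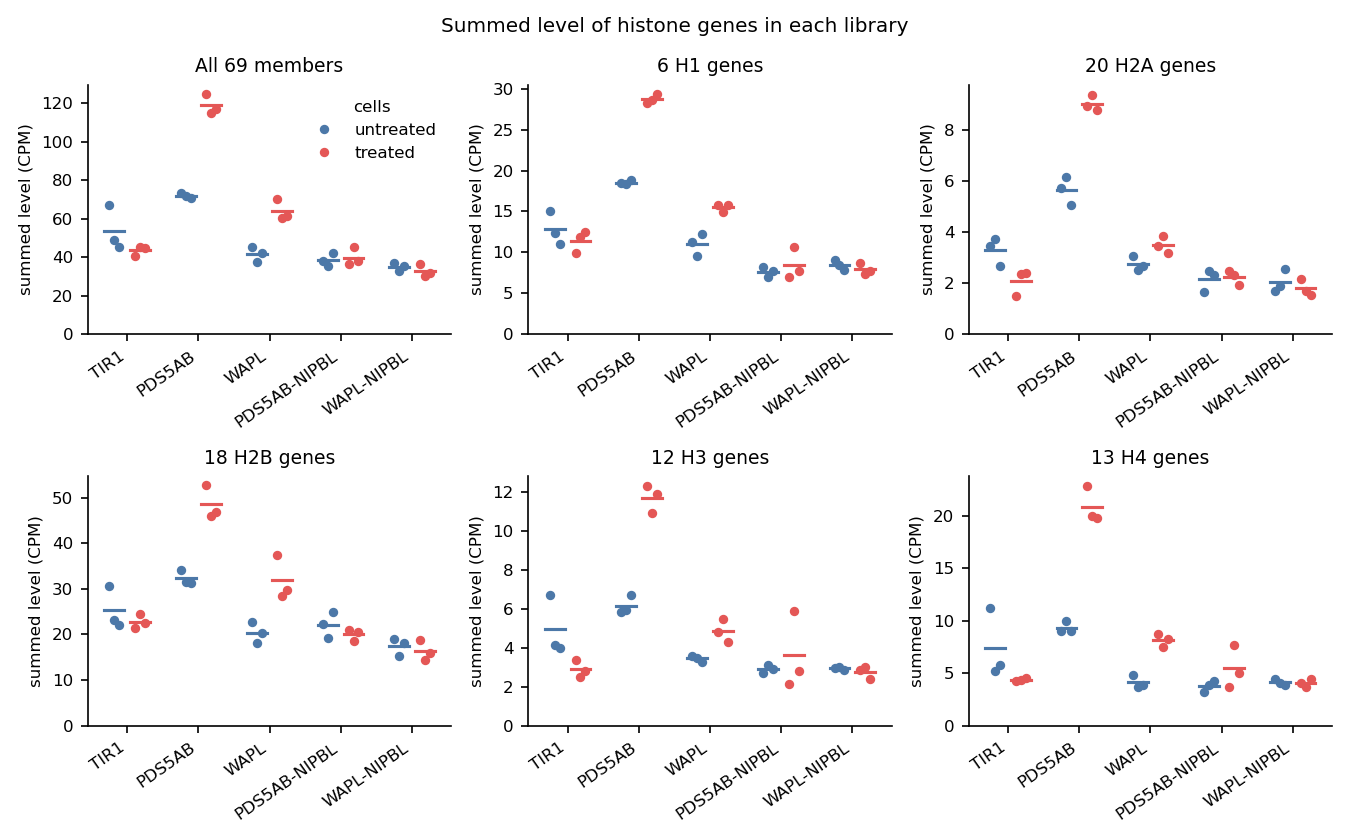
Summed level (CPM, axes from 0) of all 69 histone genes and of each histone type in each of the 30 libraries, by line; points are libraries and bars are the means of 3. In the PDS5AB and WAPL lines every treated library lies above every untreated library in all 6 panels, and in both NIPBL lines the groups overlap in all 6.

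Of the 35 tested members, 12 rose (34.3%) and 0 fell after auxin in PDS5AB cells, beside 25.8% of all tested genes that rose and 20.2% that fell (46% in all). The members' median log2 fold change was 0.52, beside 0.038 over all tested genes, and 28 of 35 had a positive value. The 12 were 1 of 5 H1, 2 of 4 H2A, 2 of 10 H2B, 3 of 9 H3 and 4 of 7 H4 genes. By annotated end, 6 of 19 tested members reaching past the stem-loop rose, 2 of 8 ending near it and 4 of 8 without a match.

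The linker histone gene Hist1h1c stood at 16.3, 15.6 and 16.3 CPM untreated and at 25.3, 26 and 26.9 CPM treated. All treated libraries lay above all untreated ones, and Hist1h1c rose by 0.70 ± 0.102 on the log2 scale (adjusted p = 1.57e-06). Hist1h1a and Hist1h1b, the other H1 genes with the highest levels, had log2 fold changes of 0.01 ± 0.393 and -0.48 ± 0.465 and did not pass the test. Among H2B genes, Hist1h2bc went from 27, 22.8 and 25.1 CPM to 43.1, 36.4 and 37.7 CPM, a log2 fold change of 0.64 ± 0.124 (adjusted p = 8.94e-05). Its lowest treated library was still above its highest untreated one. Hist2h2be went from 0.978, 1.26 and 1.02 CPM to 1.6, 2.06 and 1.86 CPM (log2 fold change 0.76 ± 0.246, adjusted p = 0.0113), a call that was lost without PDS5AB treated replicate 2 (adjusted p = 0.0512). Hist3h2ba, the other H2B gene outside Hist1 that was tested, had 0.48 ± 0.256 and did not pass.

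Among H4 genes, 4 of 7 rose, with the largest log2 fold change of all members that rose. Hist1h4i stood at 5.46, 6.28 and 5.52 CPM untreated and at 14.1, 13.1 and 13 CPM treated, with a log2 fold change of 1.22 ± 0.145 (adjusted p = 5.7e-08). Hist1h4h stood at 0.506, 0.694 and 0.607 CPM untreated and at 2.61, 2.48 and 2.35 CPM treated, with 2.03 ± 0.396 (adjusted p = 9.87e-05), the largest among the 12. In both genes the replicates of a group lay close together beside the distance between groups. Hist1h4a rose from 0.472, 0.43 and 0.442 CPM to 1.64, 1.44 and 1.24 CPM, and Hist1h4k from 0.337, 0.397 and 0.11 CPM to 1.34, 0.784 and 0.751 CPM, with log2 fold changes of 1.67 ± 0.371 and 1.78 ± 0.514. Hist1h4d, another H4 gene, had -0.10 ± 0.393 and Hist2h4 0.48 ± 0.503, and neither passed.

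Among H3 genes, Hist1h3g stood at 2.19, 1.59 and 1.66 CPM untreated and at 4.07, 3.3 and 3.27 CPM treated (log2 fold change 0.97 ± 0.204, adjusted p = 2.46e-04). Hist2h3c2 (ENSMUSG00000081058.5, chr3:96238108-96239127, minus strand) stood at 1.05, 1.12 and 1.24 CPM untreated and at 3.43, 3.17 and 3.69 CPM treated (1.59 ± 0.348, adjusted p = 3.91e-04). In the TIR1 control Hist2h3c2 had a similar fold that did not pass. It stood at 0, 0.0881 and 0.142 CPM in untreated and at 0.152, 0.249 and 0.317 CPM in treated TIR1 cells, or 6 against 28 counts. The ratio scaled to depth was 3.17 (95% interval 1.29 to 9.37, counting error only), and the log2 fold change was 1.61 ± 0.713 (adjusted p = 0.113). Auxin cannot be told apart there from the break in library numbers. The PDS5AB effect on Hist2h3c2 did not differ from the TIR1 effect past the threshold (-0.02, adjusted p = 0.967). Both H3 genes had separate groups in PDS5AB cells, and Hist1h3d also rose, by 1.39 ± 0.349. Among H2A genes, Hist3h2a (ENSMUSG00000078851.4, chr11:58954685-58956830, plus strand) went from 1.75, 2.05 and 1.93 CPM to 3.77, 3.85 and 4.57 CPM (1.09 ± 0.234, adjusted p = 3.27e-04). Hist1h2al went from 0.54, 0.562 and 0.69 CPM to 2.2, 2.19 and 1.73 CPM (1.76 ± 0.403, adjusted p = 6.31e-04). Hist1h2ae stood at 0.877, 1.55 and 1.02 CPM untreated and at 0.522, 0.849 and 0.947 CPM treated and did not pass (-0.56 ± 0.299, adjusted p = 0.128). Scaling to library totals alone moved the median of all tested genes from 0.038 to 0.193, and 13 members rose and 0 fell under it, beside 35.6% of all tested genes that rose and 11.9% that fell, a share of members near that of all genes. The median of the difference of effects was moved in the same way by 0.141 for PDS5AB against TIR1 and by -0.108 for PDS5AB-NIPBL against PDS5AB.

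**Figure D3:**
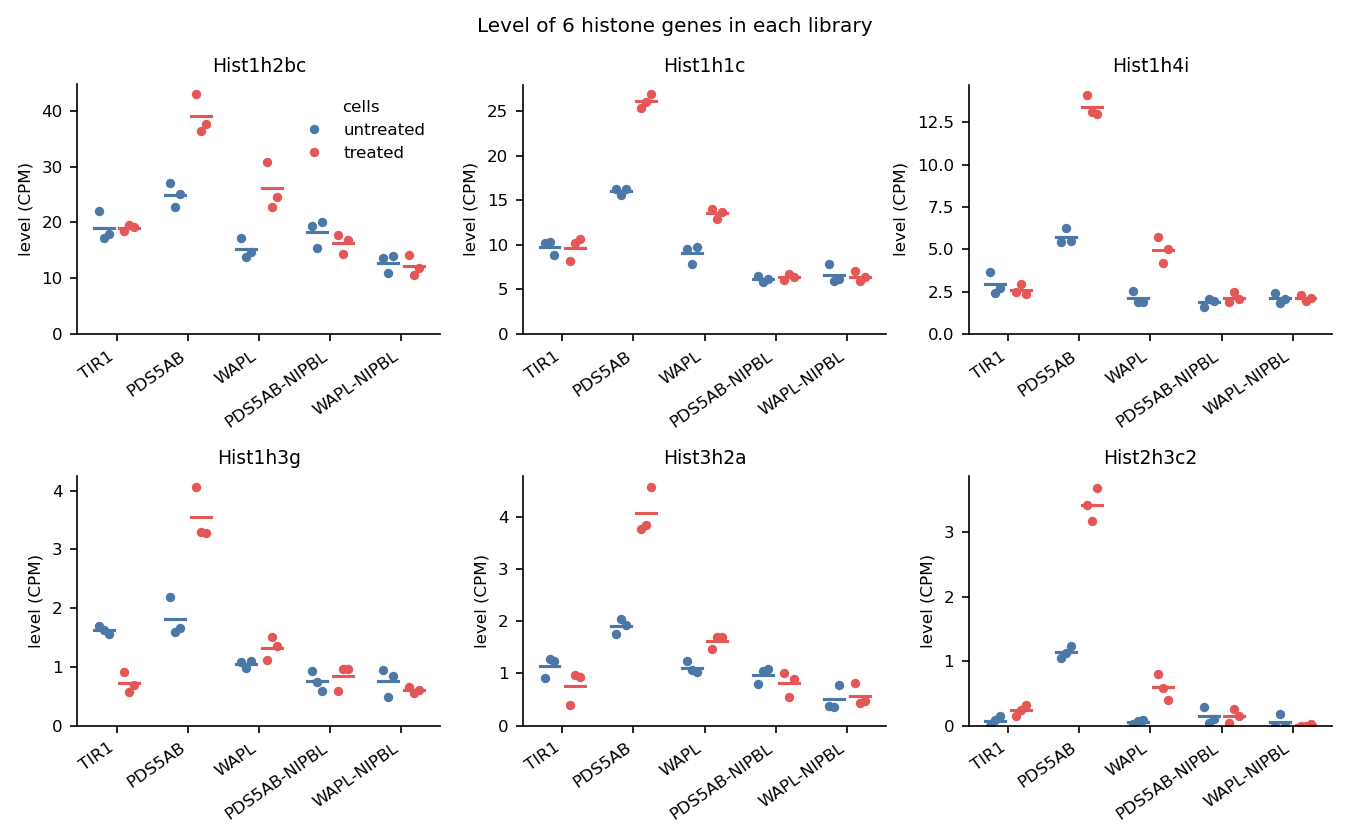
Level (CPM, axes from 0) of 6 histone genes in each library, by line; points are libraries and bars are the means of 3. The 3 treated PDS5AB libraries are the highest of all 30 for each of the 6 genes, and Hist2h3c2 is near 0 in the untreated TIR1, WAPL and WAPL-NIPBL libraries.

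WAPL releases cohesin from chromatin, and its removal was examined in the same way. All members together stood at 45.4, 37.3 and 42.2 CPM in untreated WAPL cells and at 70.0, 60.1 and 61.3 CPM after auxin, a ratio of 1.53 ± 0.199, and no library of a group overlapped the other group. The type ratios were 1.98 ± 0.338 for H4, 1.57 ± 0.294 for H2B, 1.41 ± 0.181 for H1, 1.41 ± 0.182 for H3 and 1.27 ± 0.183 for H2A. The Hist2 sum overlapped between the groups, at a ratio of 1.37 ± 0.443.

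Of the 35 tested members, 5 rose (14.3%) and 0 fell, beside 17% of all tested genes that rose and 15.8% that fell (32.8% in all), so the share of members that rose was near the background. Their median log2 fold change was 0.43, beside 0.004 over all tested genes, and 24 of 35 were positive. The 5 were Hist1h1c, Hist1h2bc, Hist1h4h, Hist1h4i and Hist2h3c2. All 5 were also among the 12 that rose in PDS5AB cells, which is 100% of the WAPL genes and 41.7% of the PDS5AB genes. Over all tested genes 2444 rose in both lines, which is 72.2% of the genes that rose in WAPL and 47.7% of those that rose in PDS5AB cells.

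Hist1h2bc stood at 17.3, 13.8 and 14.7 CPM untreated and at 30.9, 22.8 and 24.6 CPM treated (log2 fold change 0.77 ± 0.129, adjusted p = 2.46e-05). Hist1h1c stood at 9.54, 7.86 and 9.72 CPM untreated and at 14, 12.9 and 13.7 CPM treated (0.58 ± 0.107, adjusted p = 8.29e-05). Hist1h4i stood at 2.56, 1.87 and 1.89 CPM untreated and at 5.75, 4.2 and 4.99 CPM treated (1.22 ± 0.166, adjusted p = 9.69e-07). The groups of these 3 genes did not overlap.

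Hist2h3c2 had 1, 2 and 2 counts in the untreated and 21, 20 and 13 counts in the treated WAPL libraries, or 0.0309, 0.0705 and 0.0787 against 0.805, 0.587 and 0.393 CPM. The ratio of these sums scaled to depth was 9.98 (95% interval 4.02 to 32, counting error only), and the fitted log2 fold change was 3.24 ± 0.654 (adjusted p = 2.48e-04). Its excess over the TIR1 effect given above did not pass (1.63 ± 1.12, adjusted p = 0.33). Hist1h4h stood at 0.216, 0.388 and 0.157 CPM untreated and at 0.422, 0.734 and 0.937 CPM treated (1.46 ± 0.504, adjusted p = 0.0255). That call was lost without WAPL untreated replicate 1 or 3 (adjusted p = 0.0903 and 0.099) and without WAPL treated replicate 2 or 3 (0.0547 and 0.119). Hist1h3g, with 1.08, 0.987 and 1.1 CPM untreated and 1.11, 1.5 and 1.36 CPM treated, did not pass (0.33 ± 0.233), nor did Hist3h2a (0.55 ± 0.266), Hist2h2be (-0.15 ± 0.262) and Hist1h2al (-0.08 ± 0.561). With the replicate number as a block, the H2B gene Hist1h2bh also passed in WAPL cells (log2 fold change 0.96, adjusted p = 0.0395 against 0.0566 without the block), and the H2A gene Hist1h2ac in PDS5AB cells (0.94, adjusted p = 0.0459 against 0.144). The block also raised the share of all tested genes that passed, to 45.1% in WAPL cells (22.1% rising and 23% falling) and 56.6% in PDS5AB cells (30.7% rising and 26% falling).

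The difference between the PDS5AB and WAPL effects was tested itself, and 0 of 35 members passed edgeR's test, beside 12.5% of all tested genes (7.38% higher and 5.11% lower in the PDS5AB effect). DESeq2 also called 0, and 5 members had an unadjusted p under 0.05. Hist1h4i had a difference of -0.00 (adjusted p = 0.995) and Hist1h1c of 0.12 ± 0.148. With the replicate block, Hist2h2be passed (0.92, adjusted p = 0.0387 against 0.0941), higher in the PDS5AB effect, where 27.3% of all tested genes passed (14.3% higher and 13% lower). A p that misses the threshold does not show that the 2 effects on a member are alike.

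NIPBL drives loop extrusion by cohesin, and in these lines it was removed with PDS5A and PDS5B, or with WAPL. In PDS5AB-NIPBL cells all members summed to 37.9, 35.5 and 42.3 CPM untreated and to 36.2, 45.2 and 38 CPM treated, a ratio of 1.03 ± 0.154. In WAPL-NIPBL cells they summed to 37.0, 32.7 and 35.2 CPM untreated and to 36.5, 30 and 31.9 CPM treated, a ratio of 0.94 ± 0.112. The groups overlapped in both lines for the sum and for each histone type.

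In PDS5AB-NIPBL cells 0 of 35 members rose or fell in edgeR's test, beside 11.4% of all tested genes that rose and 8.06% that fell (19.5% in all), with 3 members at an unadjusted p under 0.05 and 0 called by DESeq2. In WAPL-NIPBL cells 0 rose or fell, beside 5.11% of all tested genes that rose and 3.45% that fell (8.57% in all), with 2 members at an unadjusted p under 0.05 and 0 called by DESeq2. The members' median log2 fold changes were 0.20 and -0.08, beside 0.003 and 0.006 over all tested genes. With the replicate block, Hist2h4 passed in PDS5AB-NIPBL cells (1.43, adjusted p = 0.0437 against 0.11), beside 32.1% of all tested genes (16.8% rising and 15.3% falling). Its 3 treated libraries stood at 0.546, 0.556 and 0.179 CPM, against 0.108, 0.305 and 0.0655 CPM untreated, and overlapped them.

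Hist1h2bc went from 19.3, 15.4 and 20 CPM to 17.8, 14.3 and 16.9 CPM in PDS5AB-NIPBL cells and from 13.6, 10.9 and 13.9 CPM to 14.2, 10.5 and 11.9 CPM in WAPL-NIPBL cells. Hist1h1c went from 6.46, 5.79 and 6.22 CPM to 6.01, 6.72 and 6.38 CPM, and from 7.82, 5.99 and 6.15 CPM to 7.01, 5.94 and 6.38 CPM. Hist1h4i went from 1.58, 2.05 and 1.97 CPM to 1.87, 2.48 and 2.08 CPM, and from 2.42, 1.83 and 2.06 CPM to 2.29, 1.93 and 2.12 CPM. In each of these 3 genes the treated and untreated libraries of both NIPBL lines overlapped, and the log2 fold changes lay between -0.16 ± 0.133 (Hist1h2bc, PDS5AB-NIPBL) and 0.20 ± 0.19 (Hist1h4i, PDS5AB-NIPBL). Hist1h3g and Hist3h2a likewise overlapped, at 0.17 ± 0.271 and -0.23 ± 0.307 in PDS5AB-NIPBL cells and at -0.32 ± 0.277 and 0.12 ± 0.35 in WAPL-NIPBL cells.

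**Figure D4:**
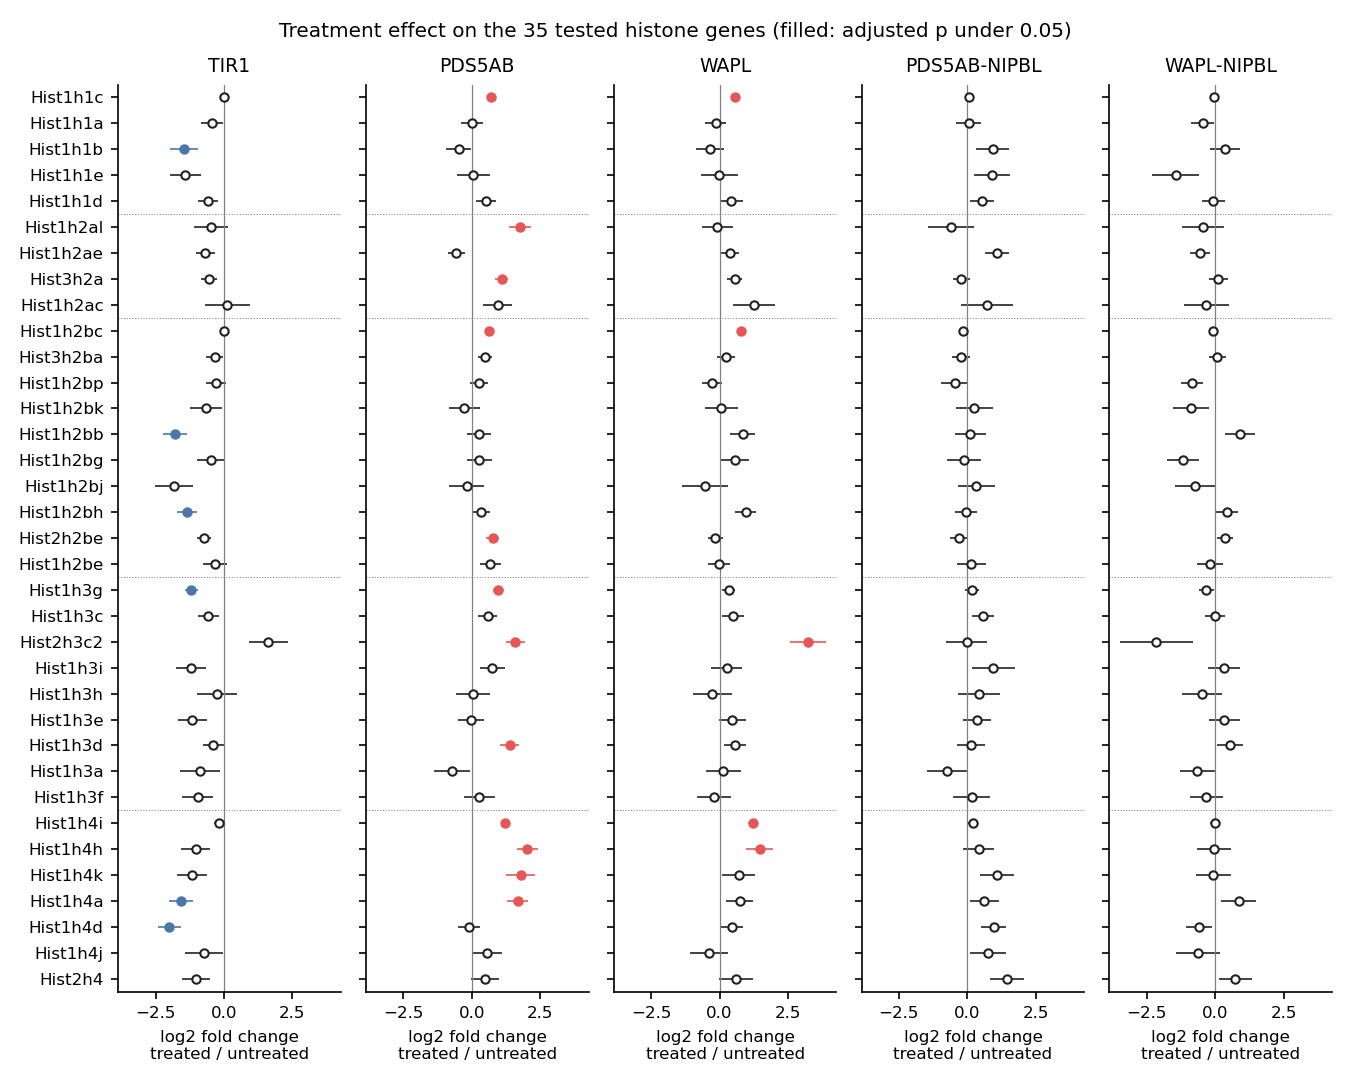
Log2 fold change of treated against untreated cells for the 35 tested histone genes in each line, ordered by type (H1, H2A, H2B, H3, H4, separated by dotted lines); points are estimates, bars are 1 standard error, and filled points had an adjusted p under 0.05. Filled points number 6 (all lower) in TIR1, 12 (all higher) in PDS5AB, 5 (all higher) in WAPL, and 0 in both NIPBL lines.

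The differences of effects were tested directly. Against the PDS5AB effect, the PDS5AB-NIPBL effect was lower for 4 members (11.4%) and higher for 1 (2.86%), beside 4.48% and 4.97% of all tested genes (9.46% in all). The 4 were Hist1h1c (-0.65 ± 0.157, adjusted p = 0.00686), Hist1h2bc (-0.80 ± 0.182, adjusted p = 0.0043), Hist1h4i (-1.02 ± 0.239, adjusted p = 0.00558) and Hist3h2a (-1.32 ± 0.386, adjusted p = 0.0276). Hist1h2ae was the member with the higher difference (1.64 ± 0.52, adjusted p = 0.0425). Scaled to library totals alone, 4 members were lower and 0 higher, beside 8.04% and 2.67% of all tested genes. Without the 2 libraries highest in 7SK RNA, 4 were lower and 0 higher, beside 3.79% and 4.44%. These were 3 of the 4 above and Hist1h2al, with the calls of Hist3h2a (-1.13, adjusted p = 0.079) and Hist1h2ae (0.116) lost. The call of Hist3h2a was lost without PDS5AB treated replicate 3 (adjusted p = 0.0622) or without PDS5AB-NIPBL untreated replicate 2 or 3 or treated replicate 2 (0.0618, 0.0701 and 0.0817). The call of Hist1h2ae was lost without PDS5AB treated replicate 1 or 2 (0.0863 and 0.0525), untreated replicate 2 (0.126), PDS5AB-NIPBL untreated replicate 2 or 3 (0.0786 and 0.107) or treated replicate 2 or 3 (0.103 and 0.0911), and with library totals alone (0.0507), no filter (0.0931) or the compared groups alone (0.0786). The count of 5 was 3 without PDS5AB-NIPBL untreated replicate 2 or 3, a count not set here against the share of all tested genes in those fits. With the replicate block 6 members were lower and 1 higher, beside 11.4% and 13% of all tested genes, with Hist2h2be (adjusted p = 0.0342 against 0.0928) and Hist1h4h (0.0493 against 0.152) added. Each effect was measured within a range of library numbers, but the 2 lines lie on either side of the break. They also differ in RAD21-Halo and in dTAG-13 treatment, so the part of NIPBL in the difference cannot be told apart.

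Against the WAPL effect, the WAPL-NIPBL effect was lower for 4 members (11.4%) and higher for 0, beside 2.16% and 3.03% of all tested genes (5.19% in all). These were Hist1h1c (-0.62 ± 0.158, adjusted p = 0.0162), Hist1h2bc (-0.85 ± 0.188, adjusted p = 0.00539), Hist1h4i (-1.21 ± 0.247, adjusted p = 0.00244) and Hist2h3c2 (-5.39 ± 1.55, adjusted p = 0.0371). The Hist2h3c2 value rests on few counts, with 5 in untreated and 1 in treated WAPL-NIPBL libraries (ratio 0.173, 95% interval 0.00366 to 1.55), and its call was lost on leaving out any 1 of 5 libraries, up to an adjusted p of 0.936 (a value of -1.41) without WAPL-NIPBL untreated replicate 2. That of Hist1h1c was lost without WAPL-NIPBL untreated replicate 1 (0.0708) or WAPL untreated replicate 2 (0.0547). All libraries of both lines lie in the range from number 25, but the lines also differ in RAD21-Halo and in dTAG-13 treatment.

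Auxin without a degron was examined as the control. All members summed to 67.2, 48.7 and 45.5 CPM in untreated TIR1 cells and to 40.4, 45.5 and 44.6 CPM treated, a ratio of 0.809 ± 0.183, and the groups touched. Untreated replicate 1 stood above the other libraries of the line, and without it the ratio was 0.924. Of the 35 tested members 6 fell (17.1%) and 0 rose, beside 9.59% of all tested genes that fell and 10.4% that rose (19.9% in all). The members' median log2 fold change was -0.68, beside -0.005 over all tested genes, and 2 of 35 were positive.

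The 6 were 1 H1, 2 H2B, 1 H3 and 2 H4 genes: Hist1h1b, Hist1h2bb, Hist1h2bh, Hist1h3g, Hist1h4a and Hist1h4d. Hist1h4d stood at 1.58, 0.616 and 0.638 CPM untreated and at 0.274, 0.204 and 0.238 CPM treated (log2 fold change -1.99 ± 0.422, adjusted p = 0.0011). Hist1h3g stood at 1.69, 1.63 and 1.56 CPM untreated and at 0.912, 0.565 and 0.687 CPM treated (-1.19 ± 0.236, adjusted p = 5.9e-04). In both genes all treated libraries lay below all untreated ones. Hist1h4a had 0.772, 0.528 and 0.532 CPM untreated and 0.334, 0.158 and 0.132 CPM treated (-1.58 ± 0.445, adjusted p = 0.0116), and Hist1h2bh 1.1, 0.793 and 0.532 CPM untreated and 0.304, 0.384 and 0.238 CPM treated (-1.36 ± 0.372, adjusted p = 0.0094). The leading members did not pass, with -0.00 ± 0.128 for Hist1h2bc, -0.01 ± 0.108 for Hist1h1c and -0.18 ± 0.167 for Hist1h4i.

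The level of the low members moved with 7SK RNA across the libraries that stood apart. The 64 members with a mean under 1 CPM summed to 28.7, 15.9 and 13.2 CPM in untreated TIR1 cells, the first value being that of the library with 10.3 CPM of 7SK RNA, and to 10, 11.2 and 10.9 CPM treated. In treated PDS5AB-NIPBL cells they summed to 8.93, 20.2 and 10.8 CPM, the second value being that of the library with 11.1 CPM of 7SK RNA. The 5 members with a mean of at least 1 CPM summed to 38.5, 32.8 and 32.3 CPM in untreated TIR1 cells, the first again the highest of the line, and to 27.2, 25.1 and 27.2 CPM in treated PDS5AB-NIPBL cells, where the second was the lowest of its group. Their treated over untreated ratios were 0.951 and 0.946. Without these 2 libraries 3 members fell in TIR1 cells, beside 7.33% of all tested genes, and 12 and 5 rose in PDS5AB and WAPL cells, beside 25.6% and 16.7%. Without TIR1 untreated replicate 1 alone 2 fell, beside 6.43% of all tested genes (Hist1h1b was lost at an adjusted p of 0.611, and Hist1h4d stood at -1.37, adjusted p = 0.0354), without TIR1 untreated replicate 3 the count was 12, beside 7.98%, and the calls of Hist1h4a and Hist1h2bh were lost without replicate 1 (adjusted p = 0.0694 and 0.0912). That of Hist1h4a was also lost without TIR1 treated replicate 2 or 3 (0.0629 and 0.0673), and that of Hist1h2bh without treated replicate 3 (0.0519). The part of carried-over RNA without a poly(A) tail in these values was not tested.

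**Figure D5:**
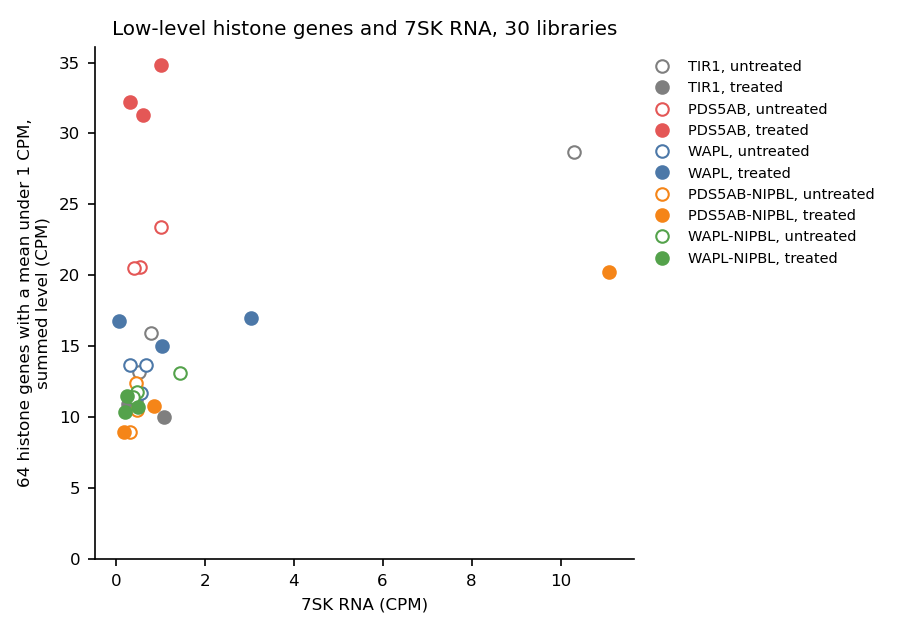
Summed level of the 64 histone genes with a mean under 1 CPM against 7SK RNA (both CPM) in the 30 libraries, coloured by line, open for untreated and filled for treated. The libraries at 10.3 and 11.1 CPM of 7SK RNA (TIR1 untreated replicate 1 and PDS5AB-NIPBL treated replicate 2) stand at 28.7 and 20.2 CPM, above the other libraries of their groups, and the treated PDS5AB libraries reach 31.3 to 34.8 CPM at low 7SK RNA.

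Set against the TIR1 effect, the PDS5AB effect was higher for 15 members (42.9%) and lower for 0, beside 13.9% and 12.4% of all tested genes, and the WAPL effect was higher for 10 (28.6%) and lower for 0, beside 9.86% and 10.9%. Both differences use the same TIR1 libraries. In the WAPL comparison, Hist1h2bb, Hist1h2bh, Hist1h3g, Hist1h4a and Hist1h4d fell in TIR1 cells and did not pass in WAPL cells. Hist3h2a passed in neither line, and the other members rose in WAPL cells. In the PDS5AB comparison, Hist1h2bb, Hist1h2bh and Hist1h4d fell in TIR1 cells and did not pass in PDS5AB cells. Hist1h3i passed in neither line, and the others rose in PDS5AB cells. Hist1h4i differed by 1.40 ± 0.221 (adjusted p = 2.3e-05) and 1.40 ± 0.236 (5.88e-05), and Hist1h1c by 0.71 ± 0.148 and 0.59 ± 0.152. The named members with the largest differences were Hist1h4a (3.25 ± 0.579, adjusted p = 1.04e-04) and Hist1h4h (3.07 ± 0.663, adjusted p = 8.64e-04) for PDS5AB, and Hist1h4h (2.50 ± 0.732, adjusted p = 0.0138) and Hist1h4d (2.44 ± 0.589, adjusted p = 0.00302) for WAPL. Without TIR1 untreated replicate 1 the Hist1h4h differences were 2.06 (adjusted p = 0.0454) and 1.51 (0.194), and the Hist1h4d difference was 1.84 (0.0266). Without that library the PDS5AB count was 9, beside 9.75% of all tested genes, and without the 2 libraries highest in 7SK RNA the counts were 10 and 9, beside 10.5% and 8.06% of all tested genes. The TIR1 effect crosses the break in library numbers, so these differences cannot be told apart from it.

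The lines differed in histone RNA before any treatment, with untreated sums of 53.8 ± 11.7 CPM in TIR1, 72.0 ± 1.23 in PDS5AB and 41.6 ± 4.07 in WAPL cells (SD, n = 3). Untreated PDS5AB cells had 8 members higher than untreated TIR1 cells (22.9%) and 0 lower, beside 15.5% and 16.5% of all tested genes, and these libraries share a range of numbers. Hist2h3c2 stood at 0, 0.0881 and 0.142 CPM in TIR1 and at 1.05, 1.12 and 1.24 CPM in PDS5AB cells, a log2 difference of 3.82 ± 0.581 (adjusted p = 4.76e-06), which was 3.22 without TIR1 untreated replicate 1 and 4.68 without replicate 3. Hist1h4i differed by 0.96 ± 0.16, Hist1h1c by 0.72 ± 0.107, Hist3h2ba by 1.03 ± 0.289 and Hist1h2al by 1.45 ± 0.53. Without TIR1 untreated replicate 3 the counts were 3 higher and 2 lower, beside 12.7% and 14.4% of all tested genes. The call of Hist3h2ba was then lost (adjusted p = 0.0684), as was that of Hist1h2al without either of PDS5AB untreated replicates 2 and 3 (0.0581 and 0.103) or TIR1 untreated replicates 2 and 3 (0.125 and 0.139), while without TIR1 untreated replicate 1 it stood at 2.08.

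Untreated WAPL cells had 4 members lower than untreated TIR1 cells (11.4%) and 0 higher, beside 7.39% and 6.62% of all tested genes: Hist1h1d, Hist1h2bb, Hist1h2bh and Hist1h4a. Without TIR1 untreated replicate 1, without WAPL untreated replicate 2, or without the 2 libraries highest in 7SK RNA, 0 members passed, beside 6.17%, 4.06% and 6.41% of all tested genes lower. Untreated PDS5AB-NIPBL cells had 14 members lower than untreated PDS5AB cells (40%) and 0 higher, beside 16.6% and 16.2% of all tested genes, and 0 of 35 log2 differences were positive, with a median of -0.97 beside -0.024 over all tested genes. The count was 9 without PDS5AB-NIPBL untreated replicate 2, beside 12.4% of all tested genes lower, where the calls of Hist1h1b (adjusted p = 0.0826), Hist1h2bc (0.0706), Hist1h2bp (0.062) and Hist2h2be (0.0605) were among those lost. Hist1h4i differed by -1.63 ± 0.169 (adjusted p = 1.32e-08), Hist1h1c by -1.38 ± 0.111 (6.56e-11), Hist1h2ae by -2.35 ± 0.367 (1.24e-05) and Hist2h3c2 by -2.92 ± 0.51 (5.56e-05; -3.85 without PDS5AB-NIPBL untreated replicate 1). In Hist1h2ae the 3 PDS5AB-NIPBL libraries stood at 0.287, 0.218 and 0.164 CPM, well below the PDS5AB libraries given above. Both of these comparisons cross the break in library numbers and cannot be told apart from it. Untreated WAPL-NIPBL cells had 2 members lower than untreated WAPL cells (5.71%) and 0 higher, beside 5.67% and 4.99% of all tested genes. These were Hist1h1c (-0.45 ± 0.114, adjusted p = 0.00747), lost without WAPL-NIPBL untreated replicate 2 or 3 (0.0638 and 0.0557), and Hist3h2a (-1.12 ± 0.318, adjusted p = 0.0189), lost without WAPL-NIPBL untreated replicate 1 or 2 (0.0811 and 0.131) or WAPL untreated replicate 1 (0.0818).

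The 250 bases before the start of transcription are shown for 3 members of different types that rose together in PDS5AB cells, with the searched motifs in capitals (RefSeq windows on GRCm38, 5′ to 3′ on the strand of the gene). They are Hist1h1c (chr13:23738557-23738806, plus strand), Hist1h4i (chr13:22041363-22041612, minus strand) and Hist3h2a (chr11:58954435-58954684, plus strand).
Hist1h1c: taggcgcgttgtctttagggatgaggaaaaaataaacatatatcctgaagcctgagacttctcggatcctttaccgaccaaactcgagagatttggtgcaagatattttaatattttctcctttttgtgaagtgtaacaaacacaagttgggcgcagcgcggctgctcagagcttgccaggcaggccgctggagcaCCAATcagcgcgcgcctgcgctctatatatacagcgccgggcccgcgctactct
Hist1h4i: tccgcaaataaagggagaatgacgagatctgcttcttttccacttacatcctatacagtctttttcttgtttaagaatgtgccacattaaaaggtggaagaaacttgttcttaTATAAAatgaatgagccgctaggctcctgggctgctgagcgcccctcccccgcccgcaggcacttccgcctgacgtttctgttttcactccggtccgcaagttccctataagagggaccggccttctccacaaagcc
Hist3h2a: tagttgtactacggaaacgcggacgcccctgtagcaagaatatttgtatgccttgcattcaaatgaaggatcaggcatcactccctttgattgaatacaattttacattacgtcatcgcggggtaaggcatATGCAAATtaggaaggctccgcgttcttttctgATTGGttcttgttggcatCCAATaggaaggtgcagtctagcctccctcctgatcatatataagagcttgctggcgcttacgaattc

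Hist1h1c has a CCAAT box, Hist1h4i a TATAAA match, and Hist3h2a an octamer read on the reverse strand with CCAAT on both strands. Windows from 250 bases before to 50 after the start were found for 61 members, and not for Hist1h2bc or Hist2h2be, and 5 motifs were searched on both strands. ATTTGCAT, the octamer known from H2B promoters, was in 21.3% of them (7 of 18 H2A, 6 of 16 H2B and 0 of the H1, H3 and H4 windows), beside 1.75% of 27025 windows of all genes. CCAAT was in 85.2% (all H1, H2A, H2B and H3 windows and 3 of 12 H4 windows), beside 37.9%. TATAAA was in 55.7%, beside 14.2%, TTTCGCGC in 14.8% (5 H2A and 4 H2B windows), beside 0.318%, and TTTGGCGC in 0%, beside 0.537%. The H2A and H2B windows are not independent, because 13 pairs of an H2A and an H2B gene start back to back, 176 to 306 bases apart (median 251), so that their windows overlap. Hist1h2ac and Hist1h2bc are such a pair, and so are Hist2h2ac and Hist2h2be. A match is a stretch of letters and not a site shown to be bound.

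The genes that make and end histone mRNA were described next, from lists of known function. The counts of this and the next lists stand beside 20.2% of all tested genes that fell in PDS5AB, 15.8% in WAPL, 8.06% in PDS5AB-NIPBL, 3.45% in WAPL-NIPBL and 9.59% in TIR1 cells, and 25.8%, 17%, 11.4%, 5.11% and 10.4% that rose. With the replicate block 26%, 23%, 15.3% and 10.1% fell in the 4 degron lines and 30.7%, 22.1%, 16.8% and 10.8% rose. Of 24 tested genes of histone transcription and 3′ end processing, 1 rose and 12 fell in PDS5AB cells (median log2 fold change -0.21; 2 and 16 with the replicate block), 0 rose and 9 fell in WAPL cells (-0.14; 0 and 14 with the replicate block), 0 and 5 in PDS5AB-NIPBL cells (2 and 10 with the block), 0 and 0 in WAPL-NIPBL cells (0 and 3 with the block), and 2 and 1 in TIR1 cells. Slbp, whose product binds the stem-loop, stood at 91.8, 105 and 107 CPM in untreated and at 77.4, 85.5 and 87.7 CPM in treated PDS5AB cells, and fell there (-0.28 ± 0.0713, adjusted p = 0.00179). It stood at 121, 110 and 115 CPM untreated and 84.9, 89.5 and 90.2 CPM treated in WAPL cells, and fell (-0.39 ± 0.0712, adjusted p = 8.51e-05). Its groups did not overlap in either line, and Slbp also fell in PDS5AB-NIPBL cells (-0.25 ± 0.0715, adjusted p = 0.0106) but did not pass in WAPL-NIPBL (-0.08 ± 0.0709) or TIR1 cells (-0.06 ± 0.0708). Its PDS5AB call was lost with library totals alone (-0.12, adjusted p = 0.141), as were those of Hinfp (-0.09, 0.39) and Nelfe (-0.18, 0.0586) in the list. The count of 12 that fell in PDS5AB cells thus depends on the scaling. The Slbp call in PDS5AB-NIPBL cells was lost without treated replicate 2 (0.075) or untreated replicate 3 (0.0574).

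Lsm11, a protein of the U7 particle, fell in PDS5AB (-0.40 ± 0.0859) and WAPL cells (-0.47 ± 0.0866), while its partner Lsm10 passed in no line. Cpsf3, the cleavage enzyme, fell in PDS5AB (-0.52 ± 0.0623), WAPL (-0.38 ± 0.0618), PDS5AB-NIPBL (-0.26 ± 0.062) and TIR1 cells (-0.20 ± 0.0614). Zfp473, a protein of the U7 particle, and Casp8ap2, a factor of the histone locus body, fell in PDS5AB cells (-0.40 ± 0.0993 and -0.29 ± 0.104). The Casp8ap2 call was lost with library totals alone (-0.14, adjusted p = 0.322) and without PDS5AB treated replicate 1 (0.108) or untreated replicate 2 or 3 (0.0662 and 0.105). The TIR1 call of Cpsf3 was lost without TIR1 untreated replicate 2 or 3 (0.0586 and 0.104) or treated replicate 1 or 2 (0.132 and 0.0592). Npat, the activator of histone gene transcription, had -0.22 ± 0.111 in PDS5AB and -0.19 ± 0.11 in WAPL cells and did not pass. Its call depends on the setting. With the block it passed in PDS5AB (-0.22, adjusted p = 0.000521), WAPL (-0.19, 0.00199) and PDS5AB-NIPBL cells (-0.16, 0.0172), as did Casp8ap2 in WAPL (-0.19, 0.00603) and PDS5AB-NIPBL cells (-0.17, 0.0214) and Lsm11, upwards, in PDS5AB-NIPBL cells (0.22, 0.0328). Fitted on the compared groups alone, Npat passed in PDS5AB (-0.25, 0.0205) and, upwards, in TIR1 cells (0.19, 0.0363), and Casp8ap2, upwards, in TIR1 cells (0.23, 0.0196). With no filter on low counts, Npat passed in PDS5AB (-0.24, 0.0247) and Casp8ap2, upwards, in TIR1 cells (0.25, 0.0202). Lsm11 also passed in PDS5AB-NIPBL cells with library totals alone (0.27, 0.0262), and Casp8ap2 in WAPL cells without treated replicate 2 (-0.31, 0.0255). Tut7, a terminal uridylyltransferase that acts in histone mRNA decay, rose in PDS5AB (0.48 ± 0.0933) and TIR1 cells (0.38 ± 0.093).

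Genes of S phase and of histone handling fell in larger numbers in the PDS5AB and WAPL cells than they rose. Of 26 S phase genes, of which Slbp was also in the list above, 25 fell in PDS5AB cells (median -0.44), 20 in WAPL cells (-0.39), 18 in PDS5AB-NIPBL cells (-0.26), 6 in WAPL-NIPBL cells (-0.18; 16 with the block) and 10 in TIR1 cells (-0.17), and 0 rose except 2 in TIR1 cells. Rrm2, a subunit of ribonucleotide reductase, fell by 0.99 ± 0.0789 in PDS5AB and by 0.63 ± 0.0778 in WAPL cells, rose in TIR1 cells (0.27 ± 0.0774), and did not pass in either NIPBL line (0.09 ± 0.0775 with PDS5A and PDS5B, -0.07 ± 0.0773 with WAPL). Pola1, the catalytic subunit of DNA polymerase alpha, fell in the 4 degron lines, furthest in PDS5AB cells (-0.94 ± 0.0756). Its TIR1 value, -0.21 (adjusted p = 0.0416), lost its call without TIR1 untreated replicate 2 or 3 or treated replicate 1 or 3 (0.196, 0.134, 0.226 and 0.107) and with library totals alone (0.0579), and that of Rrm2 without TIR1 untreated replicate 2 (0.0581). Of 19 histone chaperone genes, 1 rose and 13 fell in PDS5AB (median -0.39), 2 and 14 in WAPL (-0.31), 1 and 10 in PDS5AB-NIPBL (-0.21; 2 and 14 with the block), 0 and 2 in WAPL-NIPBL (-0.12; 1 and 11 with the block) and 0 and 0 in TIR1 cells. Chaf1b, a subunit of the chromatin assembly factor that deposits new H3 and H4, fell by 0.50 ± 0.0744 in PDS5AB and by 0.73 ± 0.0741 in WAPL cells. Rbbp7, another histone-binding chaperone, rose in WAPL cells (0.54 ± 0.079).

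Histone genes listed as replication-independent fell or did not pass in the 4 degron lines. Of 11 tested, 5 fell in PDS5AB (median -0.24; 8 with the block), 4 in WAPL (-0.17; 7), 4 in PDS5AB-NIPBL (-0.17; 7), 2 in WAPL-NIPBL (-0.08; 5) and 4 in TIR1 cells (-0.19), with 1 rising in TIR1 and 0 elsewhere. H2afz, the H2A.Z gene, stood at 689, 776 and 691 CPM in untreated and at 296, 320 and 297 CPM in treated PDS5AB cells, and fell by 1.24 ± 0.0863. It also fell in WAPL (-0.55 ± 0.0853), PDS5AB-NIPBL (-0.56 ± 0.0855), TIR1 (-0.42 ± 0.085) and WAPL-NIPBL cells (-0.27 ± 0.085), where the call was lost with library totals alone (adjusted p = 0.0794) and on leaving out any library but untreated replicate 2 (0.0712 to 0.219). H1fx, a replication-independent linker histone gene, fell in all 5 lines, by 0.40 ± 0.113 in WAPL (lost without WAPL treated replicate 3, adjusted p = 0.0692) to 0.83 ± 0.11 in TIR1 cells, and H1f0 fell in PDS5AB (-0.66 ± 0.134) and TIR1 cells (-0.55 ± 0.134). H2afy, a macroH2A gene, rose in TIR1 cells (0.67 ± 0.0711). A difference between the member list and any of these lists was not tested.

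Markers of cell identity moved in the same comparisons. The 9 embryonic stem cell markers had 9 fall and 0 rise after loss of PDS5A and PDS5B (ratio of their sums, treated over untreated, 0.675 ± 0.064) and 6 fall and 0 rise after loss of WAPL (0.798 ± 0.0268). With NIPBL lost as well, 7 fell in the first case (0.826 ± 0.0259; 8, with 1 rising, with the block) and 6 in the second (0.846 ± 0.0266), and in TIR1 cells 3 fell and 2 rose (0.974 ± 0.0414). The 14 markers of differentiated cells had 5 rise and 3 fall in PDS5AB cells, 7 and 2 in WAPL cells, 5 and 3 in PDS5AB-NIPBL cells, 3 and 2 in WAPL-NIPBL cells (5 and 2 with the block) and 2 and 2 in TIR1 cells, and summed to 38.6 to 139 CPM over the libraries. Their sum in PDS5AB cells went from 70.8 ± 14.4 to 119 ± 17 CPM (ratio 1.68 ± 0.418), and the ratio was 1.17 ± 0.12 in WAPL cells, 1.17 ± 0.126 in PDS5AB-NIPBL cells, 1.27 ± 0.108 in the WAPL-NIPBL line and 1.04 ± 0.0605 in TIR1 cells. Untreated PDS5AB cells, with 70.8 CPM against 45.4 ± 2.2 CPM in TIR1 cells, had 7 of the 14 higher and 1 lower (15.5% and 16.5% of all tested genes), and untreated PDS5AB-NIPBL cells had 2 higher and 5 lower than untreated PDS5AB cells (16.2% and 16.6%). Of 7 fibroblast markers 4 were tested, with 3 rising and 0 falling in PDS5AB cells, 1 and 3 in WAPL cells, 2 and 1 in PDS5AB-NIPBL cells (2 and 2 with the block) and 1 and 1 in TIR1 and WAPL-NIPBL cells. Of 15 genes of RNAs without a poly(A) tail 3 were tested, of which 1 fell in TIR1 cells (Rn7sk, -2.73 ± 0.961, adjusted p = 0.0428) and 1 rose in PDS5AB-NIPBL cells (Rn7sk, 3.21 ± 1.07, adjusted p = 0.0324), and 0 passed in the other lines. DESeq2 put the first at an adjusted p of 0.0679. Without TIR1 untreated replicate 1 the value was -0.12 (adjusted p = 0.959), and without PDS5AB-NIPBL treated replicate 2 it was 0.39 (0.893). The part of differentiation, or of cell cycle makeup, in the histone levels was not tested.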

How the data were processed

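PolyA-selected, stranded mRNA libraries of 30 samples (10 groups of 3) were analysed from 1 deposited table of fragment counts per gene. Per the file headers, the authors made these counts with featureCounts v2.0.1 in paired mode with the GENCODE vM23 annotation and no option for strand, multi-mapping or overlapping features, so fragments with several alignments or several genes were not counted. STAR 2.7.7a, cutadapt and deepTools and the build GRCm38.p6 are named in the submitters' processing notes. Symbols were found for 55154 of 55421 gene IDs (99.5%), 0 rows lacked a gene name, 0 other columns of sample values were present, and 0 pairs of libraries were identical. The table's length column, also deposited, was used only for FPKM.

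Counts were tested with edgeR 4.0.16 (R 4.3.3) by the quasi-likelihood F test on all 30 libraries with 10 group means, so that all groups share 1 estimate of the spread (20 residual degrees of freedom). A minimum count of 10 in filterByExpr left 19868 genes, which were scaled by TMM (factors 0.95 to 1.13) and called at a Benjamini-Hochberg adjusted p under 0.05 over all tested genes, in 14 contrasts. Standard errors were derived from the F statistic. Levels are TMM-scaled CPM. The fits were tested on simulated data. Totals of 19632704 to 45539021 fragments set the precision, and ratios of few counts carry exact 95% intervals that cover counting error only. The alternatives were DESeq2 1.42.0, library totals as the only scaling, other filters, thresholds and sample subsets, the replicate number as a block, and each library left out.

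A standard error is the size of the log2 estimate over the square root of its F value, which is unstable for estimates close to 0. Samples that share a replicate number deviated together within each degron line (correlations of their deviations from the group means of 0.109 to 0.333 in PDS5AB, 0.207 to 0.331 in WAPL, 0.163 to 0.222 in PDS5AB-NIPBL and 0.186 to 0.249 in WAPL-NIPBL cells) and between untreated WAPL-NIPBL and WAPL cells (0.109 to 0.227), so the numbers, taken from the labels, were taken to pair these samples.

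Named members were the 3 with the highest FPKM of each type, up to 4 called members with the largest change per direction and line and up to 2 per other contrast, all outside Hist1, and 3 testis forms. Genes of the lists were named if they were up to 2 called with the largest change per direction and line, or core factors of histone mRNA processing. Other members named where a count is broken down, and those given only for the replicate block, were chosen after their values were seen. The members and lists were chosen with earlier results of these data known. Stem-loops were searched in reference transcripts of GENCODE vM21 and promoter motifs in RefSeq windows. Both were read with Python 3.11.15 and pandas 2.3.3.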

Additional observations from a re-analysis of the deposited data

Results flagged for a closer look

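Differences between lines in the response to treatment, each tested as an interaction, are listed here with all 35 tested members as the base. The PDS5AB effect exceeded the TIR1 effect in 15 members and the WAPL effect exceeded it in 10, beside 13.9% and 9.86% of all tested genes. Some of these members fell in TIR1 cells and did not pass in the degron line. The first count was 9 without TIR1 untreated replicate 1, and the TIR1 effect cannot be told apart from the break in library numbers. In the first comparison Hist1h4a differed by 3.25 and Hist1h4h by 3.07 on the log2 scale, and in the second Hist1h4h differed by 2.50 (1.51, adjusted p = 0.194, without TIR1 untreated replicate 1, and 1.51, 0.202, without the 2 libraries highest in 7SK RNA) and Hist1h4d by 2.44. Loss of NIPBL with PDS5A and PDS5B had an effect other than their loss alone in 5 members, beside 9.46% of all tested genes: Hist1h4i at -1.02, Hist1h2bc at -0.80, Hist1h1c at -0.65, and Hist3h2a at -1.32 and Hist1h2ae at 1.64, whose calls were lost on leaving out any 1 of 4 and 7 libraries. Loss of NIPBL with WAPL had an effect other than loss of WAPL alone in 4 members, beside 5.19% of all tested genes, among them Hist2h3c2 at -5.39, which rests on few counts and was lost on leaving out any 1 of 5 libraries, and Hist1h4i at -1.21. Groups of 3 are too small for the test of a single outlying sample.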

How the results depend on the processing

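Over the alternatives run, no called value of a named gene turned its direction. Values of 4 list genes that had not passed changed sign close to 0: Lsm11 in TIR1 cells (to 0.03), Lsm10 in PDS5AB-NIPBL (to 0.02), Npat in WAPL-NIPBL (to 0.05) and Zfp473 in WAPL cells (to -0.01) on leaving out a library, and Lsm10 in PDS5AB cells (to 0.07) with library totals alone. In all, 2312 values kept their side of the threshold, 204 lost it and 15 gained it. Of the counts of called members, 193 stayed within 1.5 times the reported count and 33 did not; the cause was not tested. With the replicate block, 1 member passed in PDS5AB-NIPBL cells and 1 in the PDS5AB minus WAPL difference, against 0 each; it changed the calls given in the report and no count of another paired comparison by over 1.5 times. Where numbers did not pair samples (TIR1 cells, correlations -0.01 to 0.057, 1 of 3 closest to its own number; untreated PDS5AB with TIR1, 0.071 to 0.207, 3 of 3; untreated WAPL with TIR1, -0.042 to 0.014, 0 of 3; untreated PDS5AB-NIPBL with PDS5AB, -0.07 to 0.044, 0 of 3), the block gave 8, 8, 5 and 14 members, beside 17.2% of all tested genes lower, 17.1% higher, 9.16% lower and 18.3% lower.

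Without the 2 libraries highest in 7SK RNA, an alternative chosen after seeing the data, 3 members fell in TIR1 cells (6 with them) and 0 differed between untreated WAPL and TIR1 cells (4 with them). At an adjusted p under 0.01, the counts, each with the share of all tested genes called in either direction, were 4 for untreated PDS5AB (22.8%) and 0 for untreated WAPL (6.53%) against TIR1 cells, 9 for untreated PDS5AB-NIPBL against PDS5AB (20.8%), 1 for untreated WAPL-NIPBL against WAPL (6.1%), 3 for the PDS5AB-NIPBL minus PDS5AB (4.14%) and 2 for the WAPL-NIPBL minus WAPL difference (2.29%). Fitted on the compared groups only, which leaves fewer samples, they were 2 for untreated WAPL against TIR1 (14.6%), 0 for untreated WAPL-NIPBL against WAPL (11.1%), 2 for WAPL-NIPBL minus WAPL (3.96%) and 1 for PDS5AB minus WAPL (9.41%). With library totals alone, the summed PDS5AB ratio was 1.84 against 1.65.

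Leaving out each library in turn gave 2 to 12 called members in TIR1, 11 to 13 in PDS5AB, 4 to 5 in WAPL, 0 to 1 in PDS5AB-NIPBL cells and 0 in those of the WAPL-NIPBL line. The untreated comparisons gave 5 to 8 (PDS5AB against TIR1), 0 to 5 (WAPL against TIR1), 9 to 15 (PDS5AB-NIPBL against PDS5AB) and 0 to 2 (WAPL-NIPBL against WAPL). The differences of effects gave 9 to 17 (PDS5AB minus TIR1), 9 to 11 (WAPL minus TIR1), 3 to 6 (PDS5AB-NIPBL minus PDS5AB), 2 to 4 (WAPL-NIPBL minus WAPL) and 0 to 1 (PDS5AB minus WAPL). These ranges show how far a count depends on 1 library. They are not set here against the share of all tested genes, which moves between fits as well. Summed ratios ran from 0.751 to 0.924 in TIR1, 1.61 to 1.68 in PDS5AB, 1.46 to 1.61 in WAPL, 0.961 to 1.08 in PDS5AB-NIPBL cells and 0.885 to 0.978 in those of the WAPL-NIPBL line. Depth limits most members: the median one had 4.5 counts in its median library, and the 34 members below the filter have no test, only counts.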
